A study of Mus musculus with 32 samples.

Results

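Kidney cortex of male mice with and without Alport disease was compared on vehicle. The comparison used 8 of the 32 RNA-Seq libraries of the study, chosen by their labels alone: 4 vehicle-treated male Alport mice (*Col4a3*-/-) and 4 vehicle-treated male control mice (*Col4a3*+/-), 1 library per mouse. All 8 mice were of the strain C57BL/6J-Col4a3tm1Dec and 25 weeks old, and vehicle was a purified diet without the nicotinamide riboside (NR) that other groups received. The controls therefore carried 1 copy of the disrupted allele, and no wild-type mouse was among them. Poly(A) RNA was sequenced, and the deposited values were read counts per gene. The question was which genes differ between Alport and control kidneys when no NR is given.

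Type IV collagen forms the scaffold of basement membranes. In the mature glomerular basement membrane, the chains made from *Col4a3*, *Col4a4* and *Col4a5* assemble into 1 network, and loss of any of them underlies Alport syndrome, in which podocytes detach, protein leaks into the filtrate, and tubular injury, inflammation and fibrosis follow. The cortex is made mostly of proximal tubules, which reclaim filtered solutes and run on mitochondrial and peroxisomal fatty acid oxidation.

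Total counts were 21451535–21763727 in the Alport and 21833587–27433134 in the control libraries. Every control library was thus deeper than every Alport library. At least 1 count was seen for 19152–19661 genes in Alport and 18585–18830 genes in control mice. TMM factors, which correct for a few abundant genes taking up counts, were 1.041–1.196 in Alport and 0.8707–0.9039 in control libraries, with no overlap. The choice of scaling therefore bears on small changes. Levels below are TMM-normalized CPM (counts scaled to library size), and fold changes are log2 of Alport over control (log2FC) with standard errors from edgeR.

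The transcriptomes of the 2 groups differed widely. Of 15286 genes that passed the filter on low counts, 7789 (51%) differed at an adjusted *P* under 0.05, 4092 (26.8%) higher and 3697 (24.2%) lower in Alport mice. A change of at least 2-fold was seen for 2611 genes (17.1%), of which 2257 (14.8%) were higher and 354 (2.32%) lower. The asymmetry grew with the size of the change: 330 genes rose at least 8-fold, and only *Cyp2d12* fell as much. At 16-fold or more, 112 genes rose and 0 fell. A change under 1.5-fold made up 3381 of the called genes. For 7246 genes (47.4%) the 4 and 4 mice did not overlap, 3917 (25.6%) higher and 3329 (21.8%) lower in Alport mice. When libraries were scaled by their totals alone, the median log2FC of all genes moved from −0.00 to 0.34 and 86.3% of the called genes were higher, so directions below are relative to the median gene. Counts of called list members below are to be read beside the 26.8% higher and 24.2% lower among all genes. In any list, members near 0 in controls could pass the filter only through the Alport mice, so their direction says little on its own.

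Direction went with the level of a gene. Level is the mean over the same 8 mice that give the fold change, so the 2 are not independent. Among 1275 genes with a mean under 1 CPM, 371 (29.1%) rose and 42 (3.29%) fell. Among 4189 genes at 1–10 CPM, 1761 (42%) rose and 291 (6.95%) fell. Among 7955 genes at 10–100 CPM, 1776 (22.3%) rose and 2255 (28.3%) fell. At 100–1000 CPM, 182 of 1792 genes (10.2%) rose and 1049 (58.5%) fell. Of the 75 genes above 1000 CPM, only *Spp1* and *Psap* rose and 60 (80%) fell, with a median log2FC of −0.73. Counts were also spread over more genes in Alport mice, since 50% of them lay in 691–950 genes in Alport mice and in 439–451 genes in control mice (exact permutation test, two-sided, *P* = 0.0286).

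**Figure D1:**
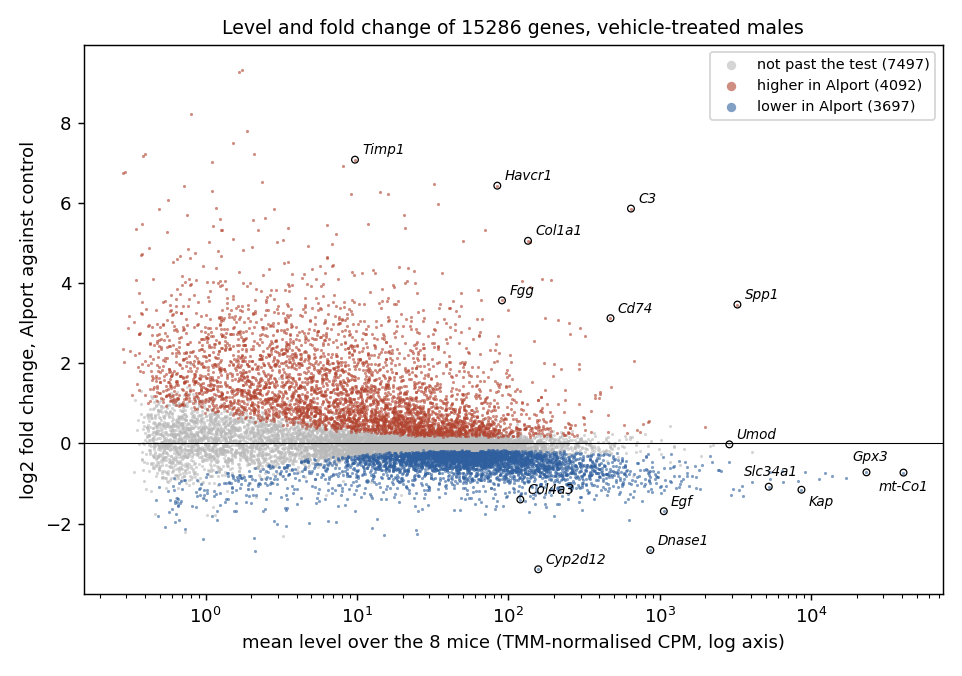
Mean level over the 8 mice (TMM-normalized CPM, log axis) against log2 fold change of Alport over control for 15286 genes, with genes past the test coloured by direction. The 4092 higher genes reach far above the axis at lower levels, while most of the 75 genes above 1000 CPM lie below 0 on the fold change axis.

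The targeted gene was checked first. *Col4a3* (chr1:82586921-82722059, mm10, plus strand) stood at 57.3, 67.2, 55.5 and 84.3 CPM in the Alport mice and at 191, 188, 172 and 144 CPM in the controls. Every Alport mouse lay below every control, with a log2FC of −1.40 ± 0.14 (adjusted *P* = 7.25e-06). The counts are per gene and not per exon, so remaining reads do not show whether the disrupted part is transcribed, and the controls carry the allele too. *Col4a4* (chr1:82448423-82586849, minus strand), the neighbour that starts beside *Col4a3* in the opposite direction, had a log2FC of −0.37 ± 0.12 (adjusted *P* = 0.0208). That small difference lost its call without Alport replicate 1 or 2 or control replicate 1 or 2, and when library totals were used. Among 52 tested genes within 5 Mb of *Col4a3*, 12 rose (23.1%, against 26.8% of all genes) and 13 fell (25%, against 24.2%), with a median log2FC of −0.01, beside −0.00 for all genes.

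The other type IV collagen chains moved the opposite way. *Col4a1* and *Col4a2*, which encode the chains of nearly all basement membranes and of the immature glomerular one, stood at 396–552 and 308–391 CPM in Alport mice against 103–127 and 91.3–102 CPM in controls. Their log2FC were 1.98 ± 0.12 and 1.85 ± 0.10. The 2 genes start beside each other on opposite strands (chr8:11198423-11312826 and chr8:11312805-11449287) and overlap by their first bases, and whether the counting used strand is not given. *Col4a6* rose as well, from 0.80–1.35 to 2.74–10.01 CPM. *Col4a5*, the X-linked partner of *Col4a3*, rose by a log2FC of only 0.32 ± 0.11 (adjusted *P* = 0.0286), and that call was lost without Alport replicate 2 or 3 or control replicate 1 or 4 and in the fit of 32 mice (0.24, adjusted *P* = 0.196). Of 17 laminin, nidogen and associated basement membrane genes 15 rose and 1 fell, with a median log2FC of 1.06. *Lama2*, a laminin chain that mature glomerular basement membrane lacks, rose by 1.97 ± 0.16 on the log2 scale. *Lamb2* and *Lama5*, the chains of its mature laminin, rose less, by 0.84 ± 0.12 and 0.69 ± 0.12, and *Lamb1*, a chain of the immature one, by 0.39 ± 0.08. *Lama3*, an epithelial laminin chain, was the member that fell (−0.43 ± 0.16, adjusted *P* = 0.0477), a call lost with limma-voom and library totals among others. *Nid1*, a linker of laminin and collagen, rose by 2.23 ± 0.15. *Smoc2*, a matricellular protein, rose from 0.61–1.37 to 23.1–74.2 CPM, with Alport replicate 3 the highest.

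Interstitial matrix genes rose far more. Of 21 fibrillar and other interstitial collagens, 19 were tested, 15 rose and 1 fell, with a median log2FC of 2.59 beside −0.00 for all genes. *Col1a1*, the main chain of fibrillar collagen, stood at 219.5, 291, 315 and 222 CPM in Alport mice and at 7.30, 8.86, 5.63 and 9.68 CPM in controls, a log2FC of 5.05 ± 0.19 (adjusted *P* = 8.18e-09). The lowest Alport mouse was thus far above the highest control. *Col3a1*, *Col6a1* and *Col15a1* rose by log2FC of 4.11 ± 0.27, 3.18 ± 0.17 and 3.83 ± 0.14. The exception was *Col27a1*, a cartilage-type collagen, which fell from 144–203 to 69.9–131 CPM. Collagen genes together took 0.373% ± 0.063 (SD, n = 4) of library counts in Alport and 0.112% ± 0.0075 in control mice (exact permutation test, two-sided, *P* = 0.0286, the smallest that 4 against 4 mice can give).

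Among 27 tested fibroblast and myofibroblast genes, 25 rose and 0 fell, with a median log2FC of 2.41. In bulk cortex, more cells of a type and more RNA per cell cannot be told apart, and likewise fewer cells and less RNA. *Fn1* (fibronectin) rose by 3.33 ± 0.14, *Tnc* (tenascin C) by 4.01 ± 0.22, *Vim* (vimentin) by 2.04 ± 0.12 and *Pdgfrb*, the receptor of pericytes and fibroblasts, by 2.39 ± 0.17. *Acta2*, smooth muscle actin and the classical myofibroblast marker, was a weaker case: it stood at 50.1, 57.2, 109 and 48.2 CPM in Alport mice and at 37.9, 31.9, 38.2 and 32.2 CPM in controls. The groups did not overlap, but Alport replicate 3 was well above the others, and the log2FC was 0.92 ± 0.23 (adjusted *P* = 0.00499). *Sparc*, a collagen-binding protein, rose from 68.5–74.8 to 457–614 CPM.

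Matrix turnover genes changed on both sides of the protease balance. Of 35 tested proteases and inhibitors, 30 rose and 2 fell (median log2FC 2.35), although their summed level, 3922–4100 CPM in Alport and 4105–4481 CPM in control mice, was lower in Alport mice. *Timp1* (chrX:20870166-20874735), an inhibitor of matrix metalloproteinases, stood at 19.9, 24, 16.3 and 16.9 CPM in Alport mice against 0.20, 0.041, 0.047 and 0.27 CPM in controls, a log2FC of 7.08 ± 0.31 (adjusted *P* = 2.12e-08). *Mmp7* (matrilysin) had 335 counts over the Alport mice and 0 over the controls, at least 100-fold higher when 3 counts over the control group are taken as the floor. Both genes were near 0 in controls and could pass the filter only through the Alport mice, so their part in the list count says little. *Mmp2* (gelatinase A) rose by 4.36 ± 0.21. The 2 that fell are abundant genes of the tubule: *Mep1a*, a brush border metalloprotease, at −0.81 ± 0.15, and *Timp3* at −0.45 ± 0.12, the latter not called with library totals (log2FC −0.12).

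In the TGF-beta family, 22 of 31 genes rose and 3 fell (median log2FC 0.93). *Tgfb1*, the fibrogenic ligand, stood at 38.7, 46.5, 43.6 and 38.8 CPM in Alport mice and at 8.67, 8.70, 8.87 and 9.45 CPM in controls, a log2FC of 2.23 ± 0.09 with little spread in either group. *Tgfb2* rose by 1.90 ± 0.29 and *Ctgf*, a target of the pathway, by 1.29 ± 0.21. *Ltbp2*, a matrix protein of the latent TGF-beta binding family, was among the leading genes of the whole comparison, from 0.70–1.59 to 55.6–77.5 CPM (log2FC 5.98 ± 0.20). The BMP arm split, since *Grem1*, a secreted antagonist of BMPs, rose by 4.42 ± 0.21 while *Bmp7*, the BMP of the tubule, fell by 0.61 ± 0.08 on the log2 scale. Integrins and collagen receptors rose in 19 of 20 cases (median log2FC 1.15), with *Itga3*, the laminin receptor of podocytes, at 1.15 ± 0.12, *Itga2*, a collagen receptor, at 3.07 ± 0.35 and *Cd44*, a hyaluronan receptor of injured tubule and parietal cells, at 4.31 ± 0.22. *Itgb8*, which takes part in activating TGF-beta, was the integrin that fell (−0.47 ± 0.12), a call not made with library totals (log2FC −0.14). The calls of *Ddr1*, a collagen receptor (0.26 ± 0.07), and *Itgb6* (0.48 ± 0.18) were lost in the fit of 32 mice (adjusted *P* of 0.0762 and 0.164), and that of *Itgb6* also without Alport replicate 1, 2 or 3 or control replicate 1 or 2.

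Markers of tubular injury rose together, 31 of 33 tested with 1 falling and a median log2FC of 2.27. *Havcr1* (chr11:46735080-46779578), which encodes kidney injury molecule-1 of damaged proximal tubules, stood at 115, 284, 133 and 137 CPM in Alport mice and at 2.58, 2.94, 1.31 and 0.87 CPM in controls. The groups were far apart at a log2FC of 6.43 ± 0.40 (adjusted *P* = 2.25e-07), and Alport replicate 2 was the highest. *Lcn2*, the iron-siderophore carrier NGAL, rose with less spread, from 0.49–1.06 to 55.8–70.5 CPM (log2FC 6.48 ± 0.17). *Krt20* (6.22 ± 0.39) and *Sox9* (3.70 ± 0.33), a keratin and a transcription factor of injured and regenerating tubules, were also highest in Alport replicate 2. *Spp1* (osteopontin, chr5:104435118-104441050) gained more CPM than any other gene, from 491.5–622 to 5684–6732 CPM, an 11-fold rise. *Vcam1*, an adhesion molecule of maladaptive proximal tubules and endothelium, rose from 6.62–9.68 to 231–356 CPM. *Pigr*, the epithelial transporter of immunoglobulin A, was the member that fell (−0.56 ± 0.11, not called with library totals at −0.23).

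**Figure D2:**
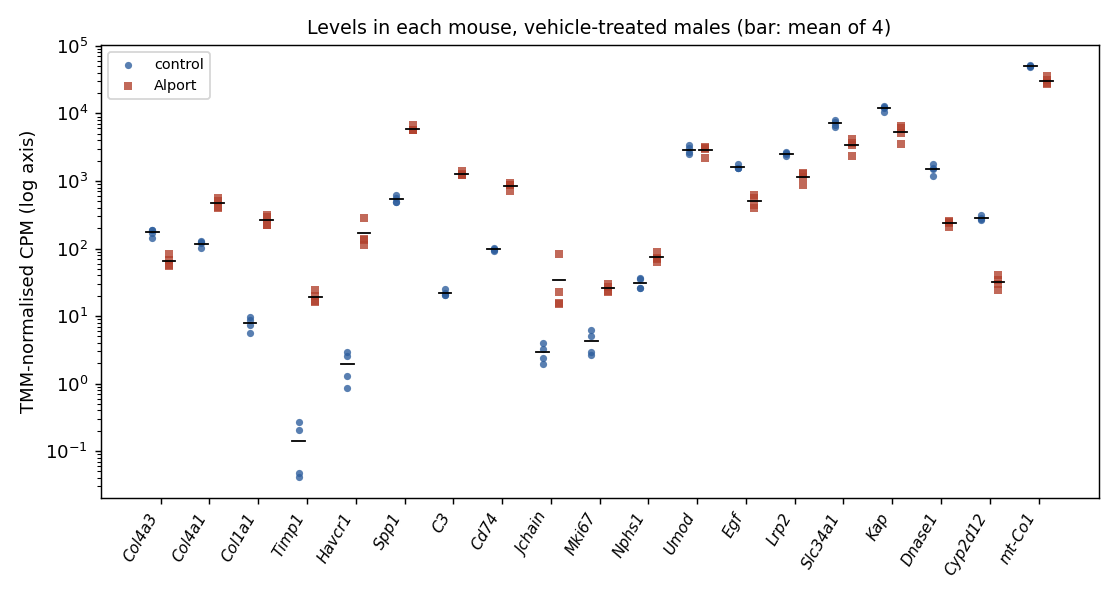
Levels of 19 genes in each mouse (TMM-normalized CPM, log axis), controls as circles and Alport mice as squares, with a bar at the mean of 4. The groups lie apart for *Timp1*, *Havcr1*, *C3* and *Cyp2d12*, overlap for *Umod*, and the 4 Alport mice spread widely for *Jchain*.

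Acute phase and clotting genes that are best known from liver were part of this change. The 3 fibrinogen chains, encoded side by side on chromosome 3 (*Fgg* at chr3:83007724-83015049, *Fga* at chr3:83026076-83033627 and *Fgb* at chr3:83040141-83049863), all rose. *Fgg* stood at 158, 174, 164 and 174 CPM in Alport mice and at 12.9, 13.7, 16.4 and 13.5 CPM in controls, a log2FC of 3.57 ± 0.09. *Fgb* rose from 0.59–1.55 to 14.3–21.6 CPM and *Fga* from 17.1–32.6 to 126–167 CPM. *Serpina3n*, an acute phase protease inhibitor with close paralogs, rose by 6.92 ± 0.32, and *Serpina10*, an inhibitor of coagulation proteases, by 5.69 ± 0.20. *Apoe* and *Clu*, secreted lipid-binding and chaperone proteins, gained CPM at high levels, from 198–372 to 834–1502 CPM and from 257–271 to 617–837 CPM.

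Of 33 complement genes 30 were tested, 22 rose and 2 fell (median log2FC 3.01). *C3*, the central component (chr17:57203970-57228136), stood at 1221, 1256, 1393 and 1207 CPM in Alport mice and at 20.2, 20.7, 25.0 and 21.8 CPM in controls, a 57.9-fold rise (log2FC 5.86 ± 0.12, adjusted *P* = 1.22e-10). Both groups were narrow and far apart. *C1qa* of the classical pathway rose by 3.44 ± 0.14, *C4b* by 3.11 ± 0.28, and the inhibitor *Cfi* by 3.07 ± 0.12. *Hc*, which encodes C5, had 77 counts over the Alport mice and 0 over the controls, at least 23.1-fold higher. *C1rl*, a serine protease related to C1r, fell by 0.40 ± 0.09 on the log2 scale, which library totals did not call (log2FC −0.06). *C8a* of the terminal complex fell by 0.76 ± 0.27, with overlapping groups, and was not called with limma-voom, library totals or either larger fit.

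Antigen presentation rose in both classes. All 13 MHC class II genes and cofactors on the list rose (median log2FC 2.91), and their summed level was 1877–2483 CPM in Alport against 290.5–322 CPM in control mice. *H2-Aa*, *H2-Ab1* and *H2-Eb1*, the classical chains, rose by log2FC of 3.13 ± 0.12, 3.01 ± 0.12 and 3.09 ± 0.12, and *Cd74*, their invariant chain, by 3.12 ± 0.11 to 713–933 CPM. *Ciita*, the transactivator of class II genes, rose from 2.42–4.13 to 19.6–27.3 CPM. Of 20 tested class I and peptide-loading genes, 17 rose and 1 fell (median log2FC 1.25). *B2m*, the class I light chain, rose by 1.34 ± 0.08, *H2-K1* by 1.14 ± 0.09 and the immunoproteasome subunit *Psmb8* by 2.13 ± 0.15. *H2-T22*, a nonclassical chain, fell by 0.28 ± 0.08, and its sign turned with library totals (0.06). H2 genes are near-identical copies in part, so reads may be split between them.

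Interferon-stimulated genes rose by smaller folds and almost without exception, 40 of 41 rising and 0 falling, with a median log2FC of 1.20. *Isg15*, a ubiquitin-like modifier, stood at 4.39, 3.24, 3.80 and 3.35 CPM in Alport mice and at 1.52, 0.94, 2.35 and 1.92 CPM in controls (log2FC 1.14 ± 0.27, adjusted *P* = 0.0035). *Ifit1*, an inhibitor of foreign RNA translation, rose by 1.06 ± 0.18 and *Gbp2*, a guanylate-binding protein, from 5.77–7.84 to 22.3–30.3 CPM. Genes of the response to cytosolic DNA rose too: *Tmem173* (the adaptor STING) from 1.501–2.05 to 12.4–21.8 CPM and *Mb21d1* (the sensor cGAS) from 0.047–0.66 to 1.90–3.32 CPM.

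Upstream sequences of 6 gene lists were searched for elements the lists are known for, and the 2 groups just described are given first. Interferon-stimulated response elements were taken as GAAA, any 2 bases and GAAA on either strand within the 250 bases before the RefSeq start (GRCm38.p6). They were found in 14 of 27 interferon-stimulated genes with a sequence (51.9%), against 3.46% of 27025 genes. The class II Y box, CTGATTGG on either strand, was found in 4 of 10 class II genes with a sequence (40%), against 4.43% of all genes, and CCTAGCAAC, an X box core, in 1 of 10 against 0.818%. In the other lists TGACNNNGC, an antioxidant response element, was found in 8 of 32 NRF2 targets (25% against 11.5%), TCACNCCAC, a sterol element, in 1 of 17 cholesterol genes (5.88% against 1.22%), and a PPAR element (AGGTCA repeated after 1 base) in 0 of 25 peroxisomal genes (against 0.0407%). GTTAAT followed after 1 base by ATTAAC was found in 0 of the 3 fibrinogen genes (against 0.0111%). The interferon and class II groups rose, and the sequences of 5 members are shown with the matches in capitals, overlapping matches joined. A match is a string of letters and no evidence of binding.
Isg15 (chr4:156200819-156201068, minus strand, 3 matches): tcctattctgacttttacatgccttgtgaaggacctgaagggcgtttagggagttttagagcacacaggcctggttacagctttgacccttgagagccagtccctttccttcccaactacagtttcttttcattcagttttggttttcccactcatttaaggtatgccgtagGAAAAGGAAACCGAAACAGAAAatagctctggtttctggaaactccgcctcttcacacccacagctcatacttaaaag
Ifit1 (chr19:34640639-34640888, plus strand, 2 matches): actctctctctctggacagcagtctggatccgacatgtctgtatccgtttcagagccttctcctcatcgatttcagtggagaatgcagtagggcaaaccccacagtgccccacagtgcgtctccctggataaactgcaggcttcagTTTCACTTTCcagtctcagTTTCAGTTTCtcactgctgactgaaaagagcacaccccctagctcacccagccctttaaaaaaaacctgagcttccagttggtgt
Gbp2 (chr3:142620413-142620662, plus strand, 1 match): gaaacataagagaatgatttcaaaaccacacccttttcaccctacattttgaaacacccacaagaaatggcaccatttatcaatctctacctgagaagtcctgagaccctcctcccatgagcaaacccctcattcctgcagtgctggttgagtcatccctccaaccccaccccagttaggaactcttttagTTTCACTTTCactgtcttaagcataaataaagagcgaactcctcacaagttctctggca
H2-Aa (chr17:34287824-34288073, minus strand, 1 match): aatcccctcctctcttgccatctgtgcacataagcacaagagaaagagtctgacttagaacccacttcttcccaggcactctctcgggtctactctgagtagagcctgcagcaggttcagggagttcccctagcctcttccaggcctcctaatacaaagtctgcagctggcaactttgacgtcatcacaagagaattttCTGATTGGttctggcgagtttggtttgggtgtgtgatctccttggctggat
H2-Eb1 (chr17:34305617-34305866, plus strand, 1 match): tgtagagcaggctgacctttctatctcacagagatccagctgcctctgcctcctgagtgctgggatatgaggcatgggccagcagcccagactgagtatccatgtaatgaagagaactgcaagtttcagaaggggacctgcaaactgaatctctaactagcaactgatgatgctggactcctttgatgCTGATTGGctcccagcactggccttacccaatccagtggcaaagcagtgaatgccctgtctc

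Macrophage genes rose together. Of 38 markers 36 were tested, 33 rose and 0 fell, with a median log2FC of 2.995. Any marker near 0 in controls could pass the filter only through the Alport mice. *Adgre1* (F4/80) stood at 32.9, 36.8, 34.02 and 24.7 CPM in Alport mice and at 2.58, 2.33, 3.61 and 2.97 CPM in controls, a log2FC of 3.48 ± 0.16. *Mrc1*, the mannose receptor, rose by 3.54 ± 0.21 and *Lyz2*, lysozyme, which shares sequence with *Lyz1*, by 4.06 ± 0.17. *Csf1r*, the receptor that macrophages need for survival, rose less (1.30 ± 0.13), while its ligand *Csf1* rose by 2.35 ± 0.17. *Trem2*, a lipid receptor of scar-associated macrophages, rose by 1.97 ± 0.18 and *Fcrls*, a scavenger-receptor-like gene of resident myeloid cells, by 5.46 ± 0.35.

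Lymphocyte markers were low and uneven between mice. Of 39 markers 15 did not pass the filter on low counts, and the 24 that passed rose. A marker near 0 in controls could pass only through the Alport mice, so that count says little on its own. *Cd3e* of T cells reached 0.88–3.04 CPM against 0–0.56 CPM, *Cd4* 2.03–6.41 against 0.50–1.03 CPM and *Cd8a* 1.85–4.85 against 0.70–1.88 CPM. *Ms4a1* of B cells (log2FC 1.17 ± 0.39, adjusted *P* = 0.0261) lost its call without Alport replicate 1 or control replicate 1 or 2, in the fits of 32 and 16 mice (adjusted *P* of 0.127 and 0.0779) and with a replicate block (adjusted *P* = 0.057). *Jchain*, the joining chain that plasma cells make, stood at 84.0, 22.4, 15.1 and 15.6 CPM in Alport mice and at 1.98, 3.27, 4.04 and 2.37 CPM in controls. Alport replicate 1 was highest, and without it the log2FC was 2.60 in place of 3.55 ± 0.57. *Ighm* and *Igkc* behaved likewise, with 432 and 165 CPM in that mouse against 14.5–76.4 and 28.3–52.7 CPM in the other Alport mice, and with log2FC of 3.47 and 3.36 without it in place of 5.32 ± 1.01 and 4.25 ± 0.61. *Cd79a* (1.80 ± 0.53) was 2.41 without control replicate 4. Macrophage and lymphocyte markers together took 0.105–0.207% of counts in Alport and 0.0178–0.0207% in control mice (exact permutation *P* = 0.0286).

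Signals that draw and activate these cells rose with them. Of 37 chemokines and myeloid growth factors 31 were tested, 24 rose and 0 fell (median log2FC 2.47). Here too, members near 0 in controls could pass the filter only through the Alport mice, so their direction says little on its own. *Ccl2*, which attracts monocytes, rose from 0.37–0.84 to 8.78–21.6 CPM, and *Cxcl13*, which attracts B cells, from 0.046–0.51 to 1.24–2.18 CPM. *Cxcl9*, an interferon-induced T cell attractant, rose by 1.94 ± 0.37. *Cxcl1* (log2FC 4.45 ± 0.37) and *Cxcl2* attract neutrophils. *Cxcl2* had 362 counts over the Alport mice and 1 over the controls, a ratio of 326 with a counting interval of 58.1–12900, and *Cxcl1* had a log2FC of 5.10 without control replicate 4. Neutrophil markers themselves were near the floor, since 2 of 13 were tested and *S100a8*, a defining neutrophil gene, stood at 0.12–0.82 CPM in Alport and 0–0.23 CPM in control mice. *Cxcr2*, a neutrophil receptor, was lower at the threshold (−0.59 ± 0.23, adjusted *P* = 0.0498) and not called with limma-voom or library totals. *Csf3r*, shared by neutrophils and monocytes, rose by 2.98 ± 0.39 (3.65 without control replicate 4). Of 34 genes of TNF, NF-kB and inflammasome signaling 31 rose and 0 fell (median log2FC 2.32). *Tnf* rose from 0.091–0.30 to 0.94–1.59 CPM, *Nfkb2* by 1.80 ± 0.13, *Il1b* by 2.35 ± 0.30, *Nlrp3* by 2.72 ± 0.37 and *Gsdmd*, the pore of pyroptosis, by 2.40 ± 0.15. *Il1rn*, the antagonist of interleukin-1, rose by more than *Il1b*, at 5.08 ± 0.40.

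Proliferation genes were higher at low levels, with 31 of 35 rising and 0 falling (median log2FC 1.43). *Mki67*, a marker of cycling cells, stood at 22.4, 23.1, 27.2 and 30.2 CPM in Alport mice and at 2.94, 2.70, 6.29 and 5.07 CPM in controls (log2FC 2.60 ± 0.23). *Top2a* rose by 1.56 ± 0.17. *Ccnd1* (cyclin D1) did not pass the test, at 146–194 CPM in Alport and 103–216 CPM in control mice. Among 18 tested inhibitors of the cycle and senescence genes, 11 rose and 1 fell. The p53 target *Ccng1* was the one that fell (−0.41 ± 0.11, not called with library totals), and *Mdm2*, another, did not pass the test (0.03 ± 0.10). *Cdkn1a* (p21) rose from 2.79–4.27 to 12.7–22.4 CPM and *Cdkn2b* (p15) by 3.15 ± 0.46. *Cdkn2a*, too low to be tested, had 31 counts over the Alport mice and 0 over the controls, at least 9.3-fold higher.

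Glomerular transcripts were higher, not lower, relative to the median gene. Of 21 tested podocyte genes 18 rose and 0 fell (median log2FC 1.02). *Nphs1* (nephrin), of the slit diaphragm, stood at 71.8, 69.7, 89.4 and 63.7 CPM in Alport mice and at 36.4, 35.9, 26.2 and 25.97 CPM in controls, with no overlap and a log2FC of 1.24 ± 0.14. *Wt1* rose by 1.16 ± 0.19, *Podxl* by 0.98 ± 0.13 and *Synpo* by 1.43 ± 0.12. Alport replicate 3 was the highest Alport mouse for each of these 4 genes. The median of the podocyte list relative to the control mean was 1.49 in that mouse and 0.70–0.93 in the others. Mesangial and mural genes rose in 9 of 15 cases (60%, against 26.8% of all genes) with 0 falling (median log2FC 0.54), *Itga8* of the mesangium at 1.15 ± 0.18, *Rgs5* of pericytes at 0.54 ± 0.15, and *Myh11* of smooth muscle not passing the test (0.27 ± 0.19). Of 32 endothelial genes 26 rose and 1 fell (median log2FC 0.68). *Pecam1* rose by 0.84 ± 0.08 and *Emcn* by 0.63 ± 0.10. *Flt1*, a VEGF receptor, and *Ehd3* of glomerular endothelium rose by 0.37 ± 0.07 and 0.33 ± 0.12, neither called in the fit of 32 mice (adjusted *P* of 0.102 and 0.0901), and *Ehd3* not without Alport replicate 1, 2 or 3 or control replicate 1, 3 or 4. *Kdr*, the main receptor for VEGF-A, did not pass the test (0.14 ± 0.09), and its ligand *Vegfa* fell from 258–328 to 175–229 CPM (log2FC −0.60 ± 0.10).

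**Figure D3:**
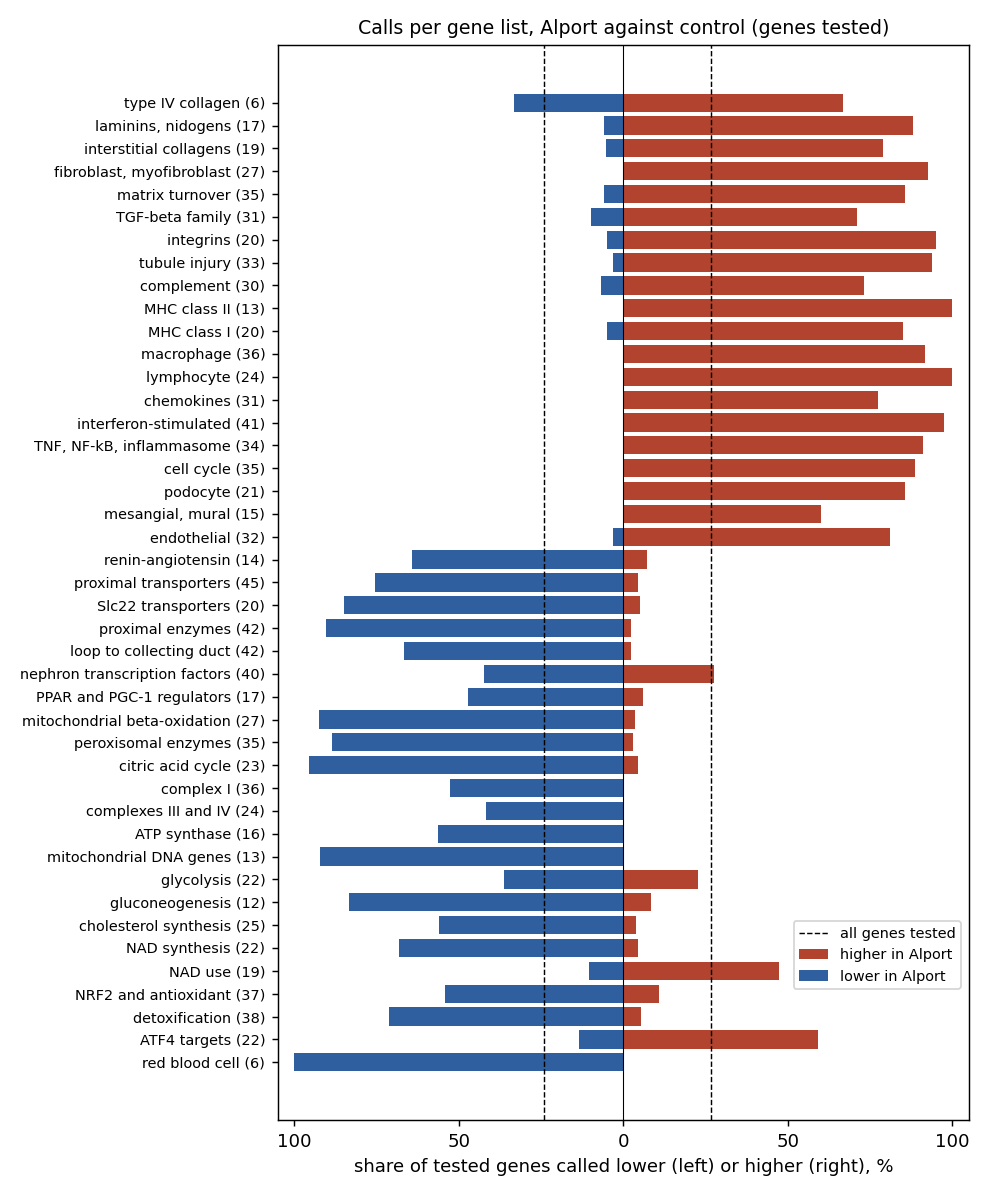
Share of the tested members of 43 gene lists called higher (right) or lower (left) in Alport mice, with the share over all genes tested as dashed lines (26.8% higher and 24.2% lower). Number of members tested is in parentheses after each name, and matrix, injury and immune lists lie to the right while tubular transport and energy metabolism lie to the left.

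Genes of the renin-angiotensin system moved the other way, with 9 of 14 tested falling and 1 rising (median log2FC −0.28, 0.06 with library totals). *Ren1* (renin) fell by 0.81 ± 0.21 on the log2 scale, a call not made with library totals (−0.48). *Ace* did not pass the test at −0.37 ± 0.15, although DESeq2 called it lower (adjusted *P* = 0.0348). *Agtr1a*, the main angiotensin receptor, had a log2FC of −0.23 ± 0.08 (adjusted *P* = 0.0349) that turned to 0.10 with library totals and lost its call with upper quartile scaling, the stricter filter and a replicate block (adjusted *P* = 0.0562) and without Alport replicate 2 or 3 or control replicate 2. *Agt*, the precursor, was the member that rose (0.82 ± 0.29, adjusted *P* = 0.0329), but it lost its call with DESeq2 and without Alport replicate 1, 3 or 4 or control replicate 1, 2 or 4.

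Proximal tubule genes were lower. Of 45 transporters 34 fell and 2 rose, with a median log2FC of −0.73. *Slc34a1*, the sodium-phosphate cotransporter, stood at 3368, 3649, 2318 and 4162 CPM in Alport mice and at 7410, 7925, 6764 and 6400 CPM in controls (log2FC −1.08 ± 0.18, adjusted *P* = 0.000451). The receptors that take up filtered protein, *Lrp2* (megalin) and *Cubn* (cubilin), fell by 1.14 ± 0.14 and 1.18 ± 0.11 on the log2 scale. *Slc5a2*, the glucose transporter SGLT2, fell by 0.73 ± 0.12, and *Slc5a12*, a lactate transporter, by 1.27 ± 0.12. *Slc7a13*, a cystine and aspartate transporter of the late proximal tubule, fell from 874–1273 to 176–314 CPM (−1.91 ± 0.18). *Slc13a1*, a sulfate transporter, went against the list and rose from 456–524 to 523–822 CPM, with a small overlap between the groups, and was not called in the fit of 32 mice (adjusted *P* = 0.166).

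The organic ion transporters of the Slc22 family, which carry drugs, urate and other solutes, fell in 17 of 20 tested cases with 1 rising (median log2FC −0.91). *Slc22a6* and *Slc22a8* (OAT1 and OAT3) fell by 0.84 ± 0.18 and 0.75 ± 0.12, and *Slc22a2* (OCT2) by 0.71 ± 0.15. *Slc22a12*, the urate transporter URAT1, stood at 763, 789, 502 and 792 CPM against 1342, 1500, 1473 and 1623 CPM. Every Alport mouse was below every control, and Alport replicate 3 was lowest. *Slc22a26* fell most (−2.28 ± 0.39), a gene with near-identical neighbours whose reads may be split. *Slc22a15*, a carnitine-type transporter, was the one that rose, from 2.79–3.23 to 9.18–11.4 CPM.

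Proximal enzymes and secreted proteins fell in 38 of 42 cases with 1 rising (median log2FC −0.87). *Kl* (klotho), the co-receptor of FGF23, fell from 722–798 to 254–375 CPM (−1.22 ± 0.12), *Miox* (inositol oxygenase) by 1.10 ± 0.17 and *Gatm* (creatine synthesis) by 0.75 ± 0.14. *Cyp27b1*, which activates vitamin D, was the member that rose, from 1.46–12.3 to 17.7–36.1 CPM (1.90 ± 0.47, not called in the fit of 32 mice at an adjusted *P* of 0.0636). *Cyp24a1*, which degrades vitamin D, varied too much between mice of both groups for a call, at 149–364 CPM in Alport and 69.1–409 CPM in control mice. Transporters and enzymes of the proximal tubule together took 5.82% ± 0.83 of counts in Alport and 9.15% ± 0.17 in control mice (exact permutation *P* = 0.0286). *Kap*, the androgen-regulated protein of the proximal tubule, fell from 10460–12760 to 3499–6575 CPM (−1.15 ± 0.20, adjusted *P* = 0.000593), a call that the fit of all 32 mice did not make (adjusted *P* = 0.202).

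Other large falls included genes of the tubule and of steroid and amino acid metabolism. *Cyp2d12* (chr15:82555072-82560403), a P450 enzyme of a family with close paralogs, stood at 34.8, 40.2, 29.5 and 24.2 CPM in Alport mice and at 265, 281, 308 and 278 CPM in controls, 8.8-fold lower (log2FC −3.14 ± 0.14, adjusted *P* = 2.43e-08). *Dnase1* (chr16:4036942-4040024), a secreted endonuclease that clears chromatin, fell from 1166–1763 to 208–254 CPM, 6.31-fold lower. *Fcamr*, a receptor for immunoglobulins A and M, fell by 2.16 ± 0.28 and *Bhmt*, which remethylates homocysteine, by 2.11 ± 0.17. *Akr1c14*, a hydroxysteroid dehydrogenase, and *Clec2h*, a C-type lectin, fell by 1.71 ± 0.20 and 1.76 ± 0.24. *Slco1a1*, an organic anion transporter with close paralogs, fell by 1.80 ± 0.52 with wide spread, from a mean of 312 to 89.7 CPM, and was not called in the fit of all 32 mice (adjusted *P* = 0.0705).

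Segments beyond the proximal tubule fell less evenly. Of 42 genes of the loop of Henle, distal tubule and collecting duct, 28 fell and 1 rose (median log2FC −0.47). *Cldn19*, a claudin of that limb, was the member that rose (0.81 ± 0.25), a call lost without Alport replicate 3 (0.55) or control replicate 2 (0.67). *Umod* (uromodulin) of the thick ascending limb overlapped between the groups, at 3077, 2199, 2981 and 3183 CPM in Alport mice and 3113, 2473, 3384 and 2648 CPM in controls (−0.02 ± 0.15). *Slc12a1*, the sodium-potassium-chloride transporter of the same segment, did not pass the test either (−0.24 ± 0.22). By contrast *Egf*, the growth factor made in thick ascending limb and distal tubule, stood at 561, 439, 395 and 619 CPM against 1574, 1562, 1794 and 1565 CPM (−1.69 ± 0.15, adjusted *P* = 2.76e-06). In the distal convoluted tubule *Slc12a3*, the thiazide-sensitive transporter, fell by 0.80 ± 0.14 and *Pvalb* (parvalbumin) by 1.88 ± 0.20. *Slc4a1*, the anion exchanger of intercalated cells, fell by 0.75 ± 0.12, and *Aqp2* of principal cells did not pass the test (0.29 ± 0.12, adjusted *P* = 0.0625), although library totals, upper quartile scaling, the stricter filter, a replicate block and leaving out Alport replicate 4 or control replicate 1 or 3 called it higher (adjusted *P* of 0.00149–0.0466). *Aqp4*, a water channel, had a log2FC of −2.26 ± 0.73, with 2.83–12.9 CPM in Alport mice and 15.9, 4.49, 100.2 and 45.8 CPM in controls. Control replicate 2 lay among the Alport mice, and without control replicate 3 the gene was no longer called (−1.35), nor was it without Alport replicate 2 (−1.97) or with limma-voom (−1.63).

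Of 40 transcription factors of the nephron 11 rose (27.5%, against 26.8% of all genes) and 17 fell (42.5%, against 24.2%), with a median log2FC of −0.14 (0.19 with library totals). *Hnf4a*, the driver of proximal tubule identity, stood at 605, 611, 482 and 801 CPM in Alport mice and at 1123, 1028, 1188 and 1109 CPM in controls (−0.83 ± 0.14). *Klf15* fell by 1.32 ± 0.12 and *Nr1h4*, the bile acid receptor FXR, by 0.95 ± 0.15. *Pax8* (0.07 ± 0.11), a factor of the whole nephron, did not pass the test, and its relative *Pax2* was at the threshold (0.26 ± 0.10, adjusted *P* = 0.0484) and not called by DESeq2 or limma-voom. *Runx1* rose from 0.87–1.47 to 8.65–18.1 CPM, beside *Sox9* above.

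Genes of energy metabolism were lower as well. Among 17 PPAR and PGC-1 regulators 8 fell (47.1%, against 24.2% of all genes) and 1 rose (median log2FC −0.34). *Ppara*, the receptor that drives fatty acid oxidation, stood at 52.0, 50.2, 42.4 and 63.2 CPM in Alport mice and at 96.3, 109, 108 and 85.8 CPM in controls (−0.94 ± 0.12). Its coactivator *Ppargc1a* (PGC-1α) fell by 0.66 ± 0.09, *Esrra*, its orphan receptor partner, by 0.69 ± 0.11, and *Tfam*, which packages mitochondrial DNA, by 0.51 ± 0.08. *Pparg*, the fat cell PPAR, was the member that rose, from 0.37–1.36 to 1.23–2.41 CPM (1.14 ± 0.39), a call lost without Alport replicate 1 or 3 or control replicate 1, 2 or 4. Of 27 genes of mitochondrial β-oxidation 25 fell and 1 rose (median log2FC −0.71). *Cpt1a*, the entry step, fell from 639–828 to 385–458 CPM, *Acadm* by 0.82 ± 0.14, and the carnitine transporter *Slc22a5* by 1.08 ± 0.11. *Hadha* (−0.48 ± 0.10) and *Acaa2* (−0.56 ± 0.14) fell less and were not called with library totals. The member that rose was *Cpt1c*, the neuronal-type isoform, from 1.03–1.42 to 3.84–6.52 CPM. Of 35 peroxisomal genes 31 fell and 1 rose (median log2FC −0.64), with *Ehhadh* at −1.06 ± 0.15, *Cat* (catalase) at −0.89 ± 0.11 and *Nudt19*, a coenzyme A hydrolase, at −1.19 ± 0.32. The member that rose was *Abcd2*, from 0.27–0.90 to 1.10–1.63 CPM. For *Nudt19*, Alport replicate 4 at 980 CPM lay near the controls (1003–1361 CPM), far above the other Alport mice (280–418 CPM).

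The citric acid cycle and respiratory chain followed at smaller folds. Of 23 citric acid cycle genes 22 fell and 1 rose (median log2FC −0.64), with *Idh2* at −0.85 ± 0.10 and *Ogdh* at −0.55 ± 0.11, while *Cs*, citrate synthase, fell by only 0.28 ± 0.08 and turned to 0.06 with library totals. *Ogdhl* was the member that rose (0.52 ± 0.17), a call lost in the fit of 32 mice (adjusted *P* = 0.0948) and without Alport replicate 1 or 2 or control replicate 2, 3 or 4. Nuclear genes of complex I fell in 19 of 36 cases (median log2FC −0.35), of complexes III and IV in 10 of 24 (−0.29, 0.04 with library totals) and of ATP synthase in 9 of 16 (−0.36), with 0 rising in each. Those shares were 52.8%, 41.7% and 56.2%, against 24.2% of all genes. Control replicate 2 was lower than the other controls for these lists, at medians of −0.29, −0.35 and −0.24 relative to the control mean, and overlapped the Alport mice (−0.10 to −0.52, −0.10 to −0.50 and −0.21 to −0.53). *Ndufs1* (−0.84 ± 0.10) and *Uqcrfs1* (−0.74 ± 0.10), iron-sulfur subunits, and *Atp5b* (−0.69 ± 0.12) and *Atp5a1* (−0.66 ± 0.12) of ATP synthase passed the test, whereas *Ndufb8* did not pass the test (−0.25 ± 0.13). *Cox4i1* (−0.36 ± 0.12, adjusted *P* = 0.029) lost its call without Alport replicate 1, 2 or 3 or control replicate 1 or 3, and with library totals (−0.02).

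Transcripts of mitochondrial DNA are the most abundant in these libraries, and 12 of the 13 protein-coding ones fell (median log2FC −0.73). *mt-Co1* stood at 31670, 27900, 27590 and 35560 CPM in Alport mice and at 51000, 49260, 51720 and 51090 CPM in controls, with no overlap. Its log2FC was −0.73 ± 0.22 (adjusted *P* = 0.0145) and missed the threshold without Alport replicate 2 (adjusted *P* = 0.0527) and with a replicate block (adjusted *P* = 0.0677). *mt-Nd1*, *mt-Nd2* and *mt-Atp6* had log2FC of −0.71 ± 0.16, −0.97 ± 0.15 and −0.69 ± 0.15. The 13 genes took 10.6% ± 0.81 of counts in Alport and 14.6% ± 0.47 in control mice (exact permutation *P* = 0.0286). Of the 10 most abundant genes 8 are mitochondrial, and after leaving out those 10 the remaining mitochondrial genes took 1.05% against 1.37% (exact permutation *P* = 0.0571).

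Genes of glucose metabolism were also read. Gluconeogenic genes fell in 10 of 12 cases with 1 rising (median log2FC −0.88). *Pck1*, the rate-limiting enzyme, stood at 1731, 1615, 1775 and 3989 CPM in Alport mice and at 4137, 4446, 6283 and 4152 CPM in controls, so that Alport replicate 4 came close to the controls (−1.06 ± 0.28). *G6pc* fell by 1.29 ± 0.22 and *Fbp1* by 0.71 ± 0.13, while *Pck2*, the mitochondrial isoform of *Pck1*, rose by 0.63 ± 0.09. Of 22 glycolytic genes 5 rose (22.7%, against 26.8% of all genes) and 8 fell (36.4%, against 24.2%), with a median log2FC of −0.18 (0.15 with library totals). *Hk2*, the inducible hexokinase, rose from 0.41–0.81 to 5.16–8.53 CPM, while *Hk1* (−0.03 ± 0.10), *Pkm* (0.07 ± 0.10) and the glucose transporter *Slc2a1* (0.05 ± 0.09) did not pass the test and *Ldha* fell by 0.41 ± 0.10, a call not made with library totals. Of 25 genes of cholesterol synthesis and uptake 14 fell (56%, against 24.2% of all genes) and 1 rose (median log2FC −0.41), with the synthesis enzymes *Idi1* and *Cyp51* at −1.38 ± 0.18 and −1.32 ± 0.20. *Sqle*, squalene epoxidase, did not pass the test (0.03 ± 0.10).

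Genes that make NAD+, the cofactor that NR supplies, were lower on vehicle. Of 22 tested genes that make NAD+ or act on its precursors, 15 fell and 1 rose (median log2FC −0.68). *Nampt*, the rate-limiting enzyme of salvage, stood at 134, 117, 129.5 and 139.7 CPM in Alport mice and at 237, 239, 244 and 234 CPM in controls, with both groups narrow (−0.87 ± 0.08, adjusted *P* = 2.74e-06). *Nmrk1*, a kinase that phosphorylates NR, fell by 0.87 ± 0.15. *Nmnat1*, the nuclear enzyme of the last step, fell by 0.34 ± 0.11 (adjusted *P* = 0.0223), a call lost with library totals (−0.01) and without Alport replicate 1 or 3 or control replicate 2. In synthesis from tryptophan, *Kmo* and *Haao* fell by 1.26 ± 0.13 and 0.88 ± 0.13, but *Qprt* did not pass the test (−0.03 ± 0.08). *Nnmt*, which diverts nicotinamide by methylation, was the member that rose, from 0–0.59 to 1.85–2.72 CPM (3.16 ± 0.59, 4.00 without control replicate 4). Of 19 genes that consume NAD+ 9 rose and 2 fell (median log2FC 0.30). *Cd38*, a glycohydrolase of leukocytes, rose by 0.86 ± 0.13 and *Parp14* by 1.94 ± 0.20, while *Parp1* (0.01 ± 0.07) and *Sirt1* (−0.18 ± 0.08) did not pass the test and *Sirt3* of mitochondria fell by 0.92 ± 0.10. *Sirt7* fell by 0.43 ± 0.09 (not called with library totals), and *Sirt1* was called lower in the fits of 32 and 16 mice (adjusted *P* of 0.0386 and 0.0391).

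Defence against oxidants and toxins fell on balance. Of 37 tested NRF2 targets and antioxidant genes 20 fell (54.1%, against 24.2% of all genes) and 4 rose (median log2FC −0.33, 0.01 with library totals). *Gpx3*, the plasma glutathione peroxidase made by proximal tubules, stood at 18900, 14910, 15030 and 21280 CPM in Alport mice and at 27200, 28930, 30950 and 28370 CPM in controls (−0.72 ± 0.20). *Sod3* fell by 0.69 ± 0.13, *Nqo1*, a classical NRF2 target, did not pass the test (−0.33 ± 0.21), and *Hmox1*, heme oxygenase, rose by 0.64 ± 0.18, a call not made in the fit of 32 mice (adjusted *P* = 0.332). Of 38 tested detoxification genes 27 fell and 2 rose (median log2FC −0.88). *Cyp4b1* fell from 3413–4963 to 855–2320 CPM, *Cyp2e1* from 1708–2254 to 684–1340 CPM (not called in the fit of 32 mice at an adjusted *P* of 0.156) and *Fmo1* by 1.33 ± 0.13, while *Cyp4a12a*, a male-biased fatty acid hydroxylase with close paralogs, fell by 1.67 ± 0.54 (not called without Alport replicate 1 or 4 or control replicate 2) and *Cyp1b1* rose from 9.62–19.0 to 60.8–96.8 CPM. Genes of the P450 family have close paralogs, so reads may be split among them. As a family they took 0.708% ± 0.11 of counts in Alport and 1.10% ± 0.055 in control mice, and solute carriers took 3.33% ± 0.20 and 4.30% ± 0.11 (exact permutation *P* = 0.0286 for each).

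Stress-response and growth factor genes changed in part. Of 22 tested ATF4 targets and related genes 13 rose and 3 fell (median log2FC 1.24), although *Atf4* itself (0.18 ± 0.09) and *Ddit3* (0.02 ± 0.14) did not pass the test. *Atf3* rose from 0.25–0.87 to 5.96–15.9 CPM, highest in Alport replicate 2, *Nupr1* by 3.74 ± 0.17, and the serine synthesis enzymes *Phgdh* and *Psat1* by 1.62 ± 0.20 and 0.90 ± 0.17. Among 14 genes of insulin-like growth factor signaling 3 rose (21.4%, against 26.8% of all genes) and 5 fell (35.7%, against 24.2%), with a median log2FC of −0.19 (0.14 with library totals). *Igf1* rose by 1.83 ± 0.27 and *Igfbp6* by 2.47 ± 0.48, while *Irs2*, an adaptor of the insulin receptor, and *Igfals*, a carrier of IGFs in plasma, fell by 0.64 ± 0.19 and 0.62 ± 0.12, neither called with library totals. The binding proteins *Igfbp1* (−0.57 ± 0.23), *Igfbp3* (−0.12 ± 0.18) and *Igfbp7* (0.24 ± 0.17) did not pass the test. *Igfbp2* stood at 12.0, 10.3, 48.4 and 11.2 CPM in Alport mice and 0.27–1.47 CPM in controls, and its log2FC of 4.25 ± 0.61 was 3.37 without Alport replicate 3.

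Markers of cells that a cortex sample may hold by chance were also read. Red blood cell genes fell in all 6 tested cases (median log2FC −1.62), with *Hba-a1*, which has a near-identical copy, at 124, 35.8, 108 and 87.9 CPM in Alport mice and 208, 240, 282 and 331 CPM in controls, and *Hbb-bs* at −1.66 ± 0.28. Their part in other results was not tested. The defining adipocyte markers were near 0, since *Adipoq* had 0 counts in all 8 mice and *Plin1* stood at 0.19–0.45 CPM in Alport and 0.19–0.57 CPM in control mice. Of 12 adipocyte genes 3 were tested, of which 1 rose and 2 fell. The list was not near 0 as a whole, at 1668–4035 CPM in Alport and 4184–6331 CPM in control mice. Most of that was *Pck1*, the gluconeogenic gene given above. Urothelial markers were near 0 except in Alport replicate 3, where *Upk1b* and *Upk3a* reached 1.90 and 1.12 CPM against at most 0.21 and 0.12 CPM in the other mice. The same mouse was extreme for many results, and the part of its urothelial RNA in them was not tested. Proximal, distal, collecting duct and glomerular genes such as *Slc34a1*, *Slc12a3*, *Aqp2* and *Nphs1* were well above 0 in every mouse, which holds for any piece of kidney and does not test the cortical label.

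The 4 Alport mice differed in how far they lay from the controls. Alport replicate 3 was the highest of the 4 for 2176 of the 4092 higher genes (53.2%) and the lowest for 2171 of the 3697 lower genes (58.7%). Alport replicate 4 was the lowest of the 4 for 2265 of the higher genes and the highest for 2129 of the lower ones (57.6%), thus nearest to the controls. Proximal enzymes followed that order, with list medians relative to the control mean of −0.87, −0.97, −1.33 and −0.53 in replicates 1 to 4. Cell cycle genes did not, since their median was highest in replicate 4, at 1.67 against 0.99–1.27 in the others. Without Alport replicate 3, 6872 genes were called, and without replicate 4, 7965.

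**Figure D4:**
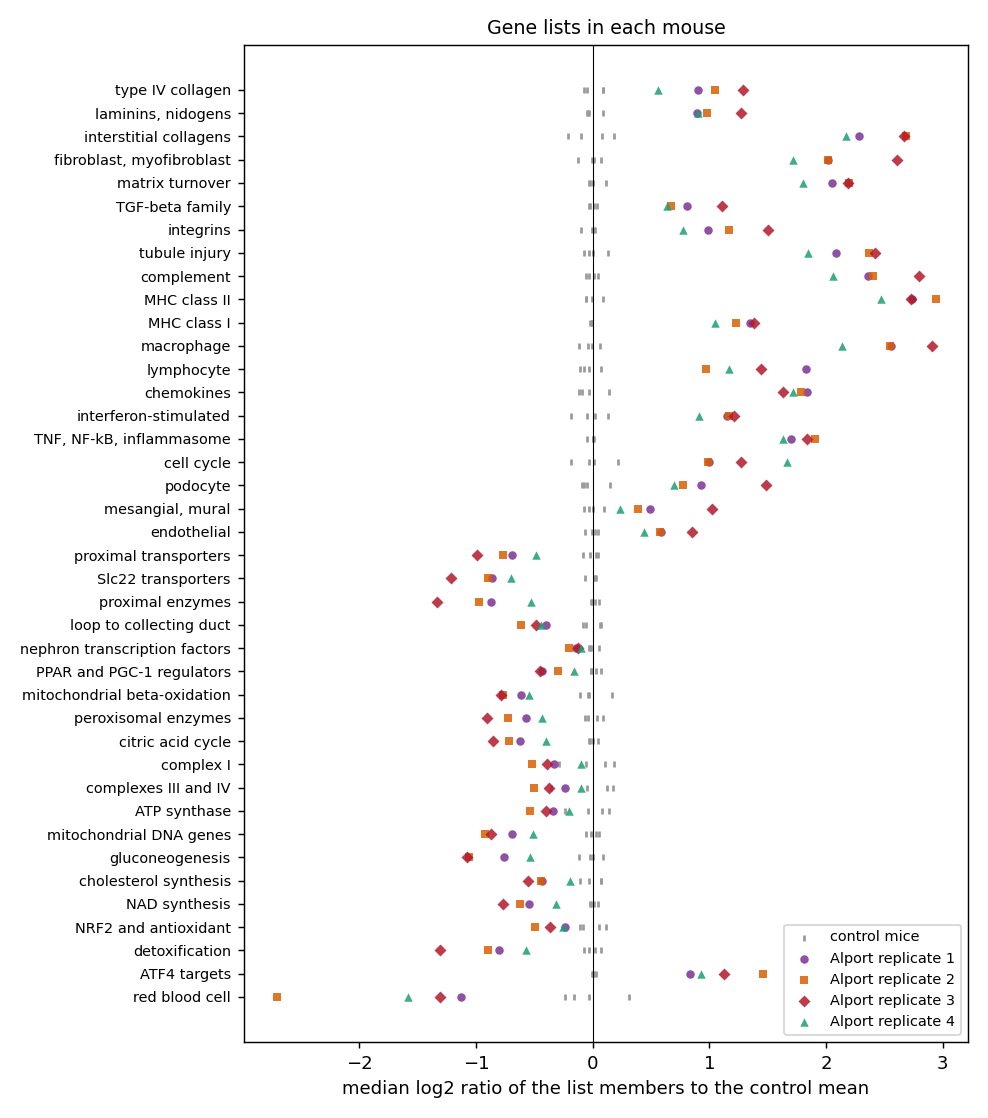
Median log2 ratio of the members of 40 gene lists to the control mean in each of the 8 mice, with control mice as grey ticks and the Alport replicates as coloured symbols. Alport replicate 3 lies outermost for podocyte, macrophage and proximal enzyme lists, replicate 4 lies nearest to the controls for those lists and outermost for cell cycle genes, and red blood cell genes are lowest in replicate 2.

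Some of the genes that fell also differed between the sexes in control kidneys. To describe this with a list that the 8 mice did not choose, genes were taken that differed at least 2-fold between NR-treated male and NR-treated female controls. Of 77 tested genes higher in males, 55 fell in vehicle-treated male Alport mice (71.4%, against 24.2% of all genes) and 5 rose, with a median log2FC of −0.94. Of 64 tested genes higher in females, 20 rose (31.2%, against 26.8% of all genes) and 11 fell, with a median log2FC of 0.29. Examples of the first group are *Slc7a13*, *Kap* and *Cyp4b1* above, *Ugt2b38*, a glucuronosyltransferase with close paralogs, from 1118 to 412 CPM, and *Slc22a30*, an organic ion transporter, from 320 to 114 CPM. How many of these genes also belong to the proximal tubule, and the part of that in the count, was not tested.

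The Alport effect in males was then set against that in the 8 vehicle-treated females in a fit of 16 mice, with levels scaled over those 16. Of 16152 genes, 46 (0.285%) had effects that differed between the sexes at an adjusted *P* under 0.05 and at least 2-fold, 26 with the effect higher and 20 with the effect lower in males. Without the limit on size 86 genes passed (0.532%). *Ugt2b37*, a glucuronosyltransferase with close paralogs, fell in males (−0.61) and rose in females (3.04), a difference of −3.65 ± 0.37 (adjusted *P* = 0.000138). In the fit of the 8 males, that small fall was not called with DESeq2, library totals, upper quartile scaling or all 32 mice (adjusted *P* of 0.0559–0.382), nor without Alport replicate 1, 2 or 3 or control replicate 1 or 4. *Slc7a13* fell in males (−1.91) and rose in females (0.61), a difference of −2.53 ± 0.27. *Abcc3*, an efflux pump of conjugates, rose in males (2.85) and fell in females (−0.63), a difference of 3.49 ± 0.38 (adjusted *P* = 0.000209). In control mice *Abcc3* averaged 1.71 CPM in males and 52.2 CPM in females, and in Alport mice 12.2 and 33.6 CPM, so the sexes were closer in Alport mice. *Slc7a13* averaged 1028 and 3.31 CPM in male and female controls and 273 and 5.09 CPM in Alport mice.

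That pattern was common to the 46 genes. All 26 with an effect higher in males were higher in female than in male controls, and all 20 with an effect lower in males were higher in male controls. The effect and the control level share the same control mice, so the count is a description and cannot be read as independent. Among the 26, *Clic6*, an intracellular chloride channel protein, rose in males (3.93) with a difference of 4.30 ± 0.66 and a male log2FC of 3.32 without Alport replicate 3, *Gbp3* of the interferon response by 1.94 against 0.39 in females, and *Fgb* by 4.18 against 2.51. *Spp1* rose in both sexes, by 3.46 in males and 2.41 in females, from control means of 566 and 1699 CPM. *Myof*, *Capg*, *Steap3* and *Pla2g5* differed by 1.43, 1.77, 1.22 and 1.25. Among the 20, *Cyp2j13*, an epoxygenase with close paralogs, fell in males (−0.99) and rose in females (2.33) from control means of 426 and 2.31 CPM. Its fall in males was not called with library totals (adjusted *P* of 0.0506) or in the fit of 32 mice (0.127). *Agps*, an enzyme of ether lipid synthesis, fell in males (−1.39) and not detectably in females (−0.03). *Frzb*, a secreted WNT antagonist, rose by 0.60 in males (not called in the fit of 32 mice, adjusted *P* = 0.252) and 2.67 in females. *Srd5a1*, which makes dihydrotestosterone, differed by −1.25. DESeq2 called 115 genes, of which 44 were among the 46, and the fit of all 32 mice called 4, of which 3 were (*Abcc3*, *Srd5a1* and *Timd2*). The count also moved when single male mice were left out: it was 19, 29 and 24 without Alport replicate 1, 2 or 3, and 25, 21 and 27 without control replicate 1, 2 or 4. It was 52 without Alport replicate 4 and 59 without control replicate 3. Female mice were not left out in turn.

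**Figure D5:**
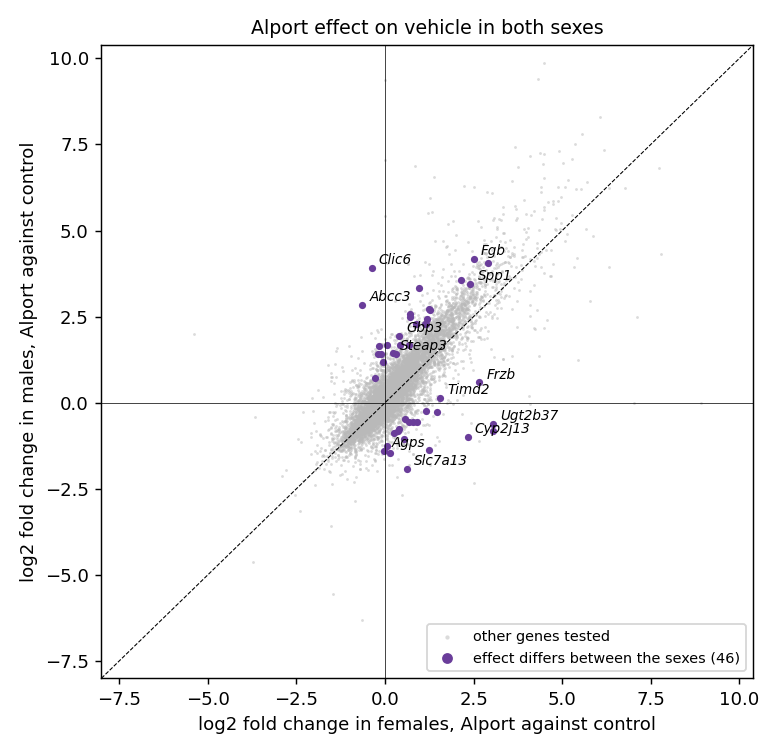
Log2 fold change of Alport over control on vehicle in females (horizontal axis) and males (vertical axis), with the 46 genes whose effects differ between the sexes in purple and equal effects as a dashed line. Most genes lie along the line, *Abcc3* and *Clic6* lie above 0 on the male axis and below it on the female one, and *Ugt2b37* and *Cyp2j13* rise in females and fall in males.

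Whether NR changed the Alport effect in males was tested in the 16 male mice. edgeR called 0 of 15800 genes (0%) for a difference between the effect on vehicle and the effect on NR, with 1398 genes at an unadjusted *P* under 0.05 and a smallest adjusted *P* of 0.29. limma-voom called 0 genes and DESeq2 20, in 18 of which the effect was higher on vehicle. The fit of all 32 mice called *Fgfbp1*, a carrier protein of fibroblast growth factors, with a difference of 1.89 (adjusted *P* = 0.00708). The 0 calls of edgeR do not show that the effects were alike. A response to NR that Alport and control mice share cancels in this difference, so the test cannot see it.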

How the data were processed

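Kidney cortex poly(A) RNA of 32 mice was sequenced after library preparation with NEBNext Ultra II, and 8 libraries were compared here. The authors deposited raw read counts per gene symbol, made with BioJupies per the study's methods. The submitters' processing notes name mm10. The aligner, annotation and strand setting are not given in the sources used here. Gene positions came from GENCODE vM21 and upstream sequences from RefSeq. The quasi-likelihood F test of edgeR 4.0.16 under R 4.3.3 was applied to the counts (TMM, filterByExpr at a minimum count of 10, Benjamini-Hochberg adjustment, threshold 0.05) in a fit of the 8 mice, and of 16 mice for the interactions. Levels are TMM-normalized CPM. Scripts were tested on simulated data. Each library is 1 mouse, and the intervals of count ratios cover counting error only. Groups and gene lists were chosen with earlier results of these data known. Named genes were preset genes of each list, the 10 largest changes in each direction at a mean of at least 5 CPM without overlap, the 8 largest gains and losses of CPM, up to 2 leading members of each list per direction, and up to 8 genes per direction of each interaction. *Slc22a30*, *Ugt2b38* and *Fgfbp1* were named after their values were seen. Alternatives were DESeq2 1.42.0, limma-voom (limma 3.58.1), other scalings and filters, larger fits, a replicate block and leaving out each mouse. Of 326 genes so named, 56 are not reported here.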

Additional observations from a re-analysis of the deposited data

Results flagged for a closer look

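In each group of 4 mice, a mouse was noted where its gap to the nearest other mouse exceeded 0.829 of the group's range, which chance does in about 1 of 20 groups. Of 640 groups of gene, list and share values, 38 had such a mouse, 9 of them Alport replicate 3, 5 replicate 2, 3 replicate 4, 2 replicate 1 and 19 a control.

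Alport replicate 3 was high for *Acta2* (109 CPM against 48.18–57.19 in the other 3), *Cdkn2b* (5.236 against 2.053–2.462), *Myh11* (65.2 against 34.68–38.64) and *Igfbp2* (48.44 against 10.3–11.95). It was low for *Slc22a12* (501.6 CPM against 762.8–792.4), *Fcamr* (4.189 against 10.02–11.2) and *Slc12a3* (506.4 against 751.4–753.1). Its P450 share of counts was 0.542% against 0.757–0.768%, and its adipocyte list median was −0.487 against −0.271 to −0.253.

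Alport replicate 2 was high for *Havcr1* (284.2 CPM against 114.7–136.5), *Spp1* (6732 against 5684–5754), *Serpina10* (49.11 against 36.31–38.03), *Atf3* (15.88 against 5.956–7.187) and *Cd44* (65.69 against 37.68–39.25). Alport replicate 1 was high for *Jchain* (84.02 CPM against 15.09–22.4) and *Ighm* (432.1 against 14.52–76.37). Alport replicate 4 was high for *Pck1* (3989 CPM against 1615–1775) and *Parp1* (59.21 against 54.66–55.18), and its neutrophil list median was 0.471 against 0.935–1.02.

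Control replicate 3 stood apart for *Fcrls* (0.563 CPM against 0.1369–0.2042), *Cxcl2* (0.04692 against 0, from a single count), *Vegfa* (258.1 against 316.6–328.4), *Egf* (1794 against 1562–1574), *Cxcr2* (2.862 against 4.493–4.561), *Slc22a5* (447.8 against 378.5–389.7) and *Pck1* (6283 against 4137–4446). Control replicate 4 did so for *Col4a5* (31.35 CPM against 36.28–37), *H2-Aa* (39.89 against 34.39–34.59), *Cxcl1* (1.278 against 0.2815–0.4493), *Mdm2* (55.45 against 42.98–45.09), *Slc7a13* (1273 against 873.9–897.7) and the MHC class I list median (−0.0253). Control replicate 1 did so for *Cfi* (4.054 CPM against 3.284–3.308) and the TNF and inflammasome median (−0.0474), and control replicate 2 for *Slc22a15* (3.227 CPM against 2.787–2.83), *Agtr1a* (44.85 against 37.07–38.26), the laminin median (0.0913) and the solute carrier share (4.47% against 4.24–4.25%).

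Alport effects that differed between the sexes, tested as an interaction, were noted for 19 named genes as male minus female log2FC. They were positive for *Clic6* (4.3), *Abcc3* (3.49), *Capg* (1.77), *Fgb* (1.67), *Gbp3* (1.55), *Myof* (1.43), *Pla2g5* (1.25), *Steap3* (1.22) and *Spp1* (1.05). They were negative for *Ugt2b37* (−3.65), *Cyp2j13* (−3.32), *Slc7a13* (−2.53), *Frzb* (−2.07), *Gm15280* (−1.47), *Timd2* (−1.42), *Agps* (−1.36), *Pigr* (−1.36), *Srd5a1* (−1.25) and *Cyp2e1* (−1.2).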

How the results depend on the processing

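The number of called genes, 7789, was 7541–8963 under other scalings, tests, filters and fits other than the stricter filter (6899), and 6872–7965 when each mouse was left out. Of 262 named genes 191 kept direction and call under all alternatives. The cause of the changes below was not tested.

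With library totals alone the list medians turned to 0.0583 (renin-angiotensin), 0.193 (nephron transcription factors), 0.0426 (complexes III and IV), 0.153 (glycolysis), 0.00703 (NRF2) and 0.143 (IGF), and the log2FC to 0.0561 (*H2-T22*), 0.336 (*Ccnd1*), 0.314 (*Umod*), 0.103 (*Slc12a1*), 0.101 (*Agtr1a*), 0.219 (*Igfbp3*), 0.0588 (*Cs*), 0.0844 (*Ndufb8*), 0.316 (*Hk1*), 0.308 (*Qprt*), 0.157 (*Sirt1*) and 0.00703 (*Nqo1*). Upper quartile scaling gave 0.0556, 0.0414, 0.0397 and 0.036 for *Ccnd1*, *Umod*, *Hk1* and *Qprt*, and at least 10 counts in each mouse gave 0.0207, 0.00819, 0.00524 and 0.00317. *Ccnd1* was 0.0287 with limma-voom, and the fit of 32 mice gave −0.0114 for *Pax8*, −0.073 for *Parp1*, −0.0609 for *Ddit3*, −0.0515 for *Mdm2*, −0.0153 for *Pkm*, −0.0328 for *Slc2a1* and −0.0534 for *Sqle*. The neutrophil median was −0.563 with at least 10 counts in each mouse, and the adipocyte median 0.224 without a filter.

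The sex interaction called 115 genes with DESeq2, 28 with limma-voom, 4 in the fit of 32 mice, 86 without the fold limit and 19–59 when a mouse was left out (19 without Alport replicate 1). The NR interaction called 20 genes with DESeq2 and 1 in the fit of 32 mice. Without the 10 most abundant genes the mitochondrial share differed by −0.32 percentage points. Female-biased genes chosen on vehicle-treated controls rose in 53.6% of cases, but that choice used the same male controls as the fold changes, so the share is not independent of them.

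When each mouse was left out in turn, signs turned for the adipocyte median (−0.419 to 0.268) and for *Ccnd1* (−0.198 to 0.111), *Cyp24a1* (−0.0535 to 0.807), *Umod* (−0.0967 to 0.083), *Pax8* (−0.0563 to 0.149), *Hk1* (−0.103 to 0.0343), *Qprt* (−0.0727 to 0.0293), *Parp1* (−0.0246 to 0.0321), *Ddit3* (−0.0861 to 0.122), *Igfbp3* (−0.234 to 0.09), *Mdm2* (−0.0348 to 0.118) and *Sqle* (−0.0257 to 0.0982), none of these genes being called with all 8 mice.

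Replicate numbers are in the labels, but deviations of same-numbered mice correlated at 0.0301–0.24, with 3 of 4 under 0.1, so the numbers were not taken to pair mice. With a replicate block 7699 genes were called, 2623 of them at least 2-fold, the sex interaction called 43 and the NR interaction 0, and *Ccnd1* was 0.03. The block ended the calls of *Ms4a1*, *mt-Co1*, *Agtr1a* and *Cxcr2* (adjusted *P* of 0.0562–0.0733), made those of *Aqp2* and *Igfbp1* (0.0243 and 0.0264), and changed no other call of a named gene. Depth limits genes near 0: 7 higher genes had no count in any control, and 17 more had at most 3 counts over the controls. Such genes could pass the filter only through the Alport mice, so their direction says little on its own, also within list counts.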
